A study of Mus musculus with 48 samples.

Results

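The pigment cell genes are 10 genes of the melanin pathway, *Tyr*, *Tyrp1*, *Dct*, *Pmel*, *Mlana*, *Mitf*, *Slc45a2*, *Oca2*, *Slc24a5* and *Gpr143*, chosen by name out of 46517 genes counted. All 10 were found in the tables of counts and of TPM, an abundance scaled by gene length and sequencing depth, by gene symbol. RNA was sequenced from 5 explants, 3 naïve irises, 3 livers, 3 preparations of isolated hepatocytes and 2 samples of spheroids kept in vitro. An explant is an engrafted liver spheroid dissected together with the surrounding iris 2 months after transplantation into the anterior chamber of the eye, so it holds eye and liver tissue at once. The irises carried no graft, the livers were taken whole from donor mice, and the hepatocyte preparations were enriched by collagenase perfusion and a Percoll step and are not pure. Each sample was labelled WT Albino of strain C57BL/6N, whereas the methods name albino B6(Cg)-Tyrc-2J/J recipients. For the study as a whole, the methods give mice of both sexes that were at least 3 months old. The paper says that sex was not recorded outside its diet experiments. No group came from pigmented mice, so melanin content does not separate any of the groups. The explants bear the numbers 1, 2, 4, 5 and 6.

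Melanin is made in melanosomes, organelles related to lysosomes, by neural crest melanocytes and by the pigment epithelia of the eye. In the iris both kinds of cell occur: melanocytes lie in the stroma, and a pigment epithelium of neuroectodermal origin covers the back. *Mitf* encodes the transcription factor that drives the pathway, and its targets include the melanogenic enzymes and the structural proteins of the melanosome. Albino mice carry a defect in tyrosinase, the enzyme of the first step, and keep their pigment cells without the pigment.

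Total counts per sample were 4596550 to 4881817 in irises, 5449589 to 6789648 in explants, 3523171 to 3871404 in livers, 2718518 to 3573075 in hepatocyte preparations and 3247327 to 3447643 in in vitro spheroids. The labelled tissues were checked against marker genes. *Pax6*, a transcription factor of the eye, stood at 197 to 204 TPM in irises, at 125 to 191 TPM in explants and at 1.65 to 3.38 TPM in the other 8 samples. *Hnf4a*, a hepatocyte transcription factor, stood at 1.46 to 2.14 TPM in irises, at 20.97 to 55.95 TPM in explants and at 159 to 234 TPM in the samples without eye tissue. Nothing in the labels says that the samples of a group came from separate animals. The paper gives a minimum number of animals for the RNA sequencing and reports biological replicates, without tying samples to animals. The p-values therefore measure the spread between these samples.

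Genes under MITF often carry the letters CATGTG upstream of their start. Windows around this motif are shown as a description of the genes. Whether the motif bears on their levels in explants was not tested. RefSeq promoter sequences (build GRCm38.p6), each with 250 bases before the transcription start and 50 after it, were at hand for 6 of the 10 genes. CATGTG or its reverse complement CACATG, searched on both strands of the 250 upstream bases, was present in the sequences of 5 of these genes and in none of the 3 sequences listed for *Mitf*. Of all 32851 promoter sequences in the table, 12.3% held it. The motif is in capitals, and each window reads 5′ to 3′ along the strand of the gene.
Tyr, chr7:87493516-87493545, minus strand: gaaaaagttagtCATGTGctttgcagaaga
Tyrp1, chr4:80834155-80834184, plus strand: tggggagggagtCATGTGctgcctagtagt
Dct, chr14:118052379-118052408, minus strand: tgcacttagggtCATGTGctaacaaagagg
Dct, chr14:118052461-118052490, minus strand: gcttggctgggaCACATGagcccaataaag
Oca2, chr7:56239561-56239590, plus strand: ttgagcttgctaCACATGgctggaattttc
Slc24a5, chr2:125068102-125068131, plus strand: aaggagactgctCACATGattcagcataag
*Tyr* and *Tyrp1* shared a stretch of 11 bases, agtCATGTGct, which 7 of all promoter sequences (0.0213%) held. The motif began 21 bases before the RefSeq start in *Tyr*, 46 in *Tyrp1*, 150 and 232 in *Dct*, 186 in *Oca2* and 13 in *Slc24a5*. In the gene models used for counting, *Tyrp1* starts at position 80834123 and *Slc24a5* at 125068124, so that the *Tyrp1* window lies inside the gene and the *Slc24a5* window reaches across its start. A match is a stretch of letters and not a measured binding site.

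Enzymes of melanin synthesis were abundant in the irises. *Tyr* (ENSMUSG00000004651, chromosome 7, 87427405 to 87493411, minus strand) encodes tyrosinase, the gene hit in albino mice. Its level was 651, 723 and 683 TPM in the 3 irises and 610, 498, 565, 471 and 435 TPM in explants 1, 2, 4, 5 and 6. Every explant was below every iris, and the counts do not read the allele. *Tyrp1* (ENSMUSG00000005994, chromosome 4, 80834123 to 80851719, plus strand), an enzyme of the later steps toward eumelanin, stood at 1923, 2028 and 1887 TPM in irises and at 1772, 1481, 1587, 1352 and 1373 TPM in explants. *Dct* (ENSMUSG00000022129, chromosome 14, 118012792 to 118052246, minus strand), the dopachrome tautomerase, was the most abundant of the 10 and the gene of rank 4 among all genes in irises. It was measured at 2487, 2644 and 2459 TPM in irises and at 2282, 1995, 2066, 1800 and 1837 TPM in explants. In neither gene did the groups overlap. Of all genes tested, 13.9% were likewise lower in explants without overlap.

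Structural proteins of the melanosome followed at similar levels. *Pmel* (ENSMUSG00000025359, chromosome 10, 128706258 to 128720238, plus strand) encodes the protein of the amyloid fibrils on which melanin is laid down, and ranked 6 in irises with 2312, 2453 and 2367 TPM. Explants held 2094, 1702, 1895, 1579 and 1617 TPM of *Pmel*. *Mlana* (ENSMUSG00000024806, chromosome 19, 29697921 to 29708448, plus strand), a melanosomal membrane protein that binds PMEL, was at 1744, 1738 and 1799 TPM in irises and at 1540, 1361, 1412, 1319 and 1382 TPM in explants. Both genes were lower in each explant than in any iris, as were 13.9% of all genes tested. Among explants *Mlana* varied least of the 10 (coefficient of variation 5.97%). Exons of *Pmel* overlap those of *Dgka* over 98 bases where a read was counted for both genes.

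Among the melanosomal transporters, *Slc24a5* (ENSMUSG00000035183, chromosome 2, 125068124 to 125088677, plus strand), a cation exchanger, was highest, with 867, 894 and 828 TPM in irises and 735, 522, 684, 557 and 504 TPM in explants. Its value is uncertain, because 921 bases (39.5% of its exon length) overlap exons of *Myef2* and reads were counted for both genes without regard to strand. *Myef2* itself stood at 172 ± 7.30 TPM (SD, n = 3) in irises and 120 ± 24.4 TPM (SD, n = 5) in explants. *Slc45a2* (ENSMUSG00000022243, chromosome 15, 11000721 to 11029233, plus strand), a sugar and proton transporter, reached 452, 453 and 419 TPM in irises and 420, 334, 389, 318 and 309 TPM in explants. The highest explant lay within the range of the irises. *Oca2* (ENSMUSG00000030450, chromosome 7, 56239760 to 56536517, plus strand), which takes part in setting melanosomal pH, stood at 388, 385 and 356 TPM in irises and at 326, 208, 291, 249 and 231 TPM in explants. Its lowest explant, explant 2, had 55.3% of the iris mean, the lowest percentage of any of these genes in any explant.

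The regulator and the receptor were the least abundant and varied most between explants. *Mitf* (ENSMUSG00000035158, chromosome 6, 97807052 to 98021349, plus strand) was at 207, 213 and 199 TPM in irises and at 202, 131, 218, 168 and 133 TPM in explants. Explant 4 exceeded each iris, explant 1 fell among them, and explants 2, 5 and 6 were below. *Gpr143* (ENSMUSG00000025333, chromosome X, 152781921 to 152808646, plus strand), a receptor in the melanosome membrane, stood at 185, 184 and 175 TPM in irises and at 174, 116, 178, 137 and 102 TPM in explants. The coefficient of variation over explants was 23.02% for *Mitf* and 23.99% for *Gpr143*, against 3.35% and 3.09% over irises.

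**Figure D1:**
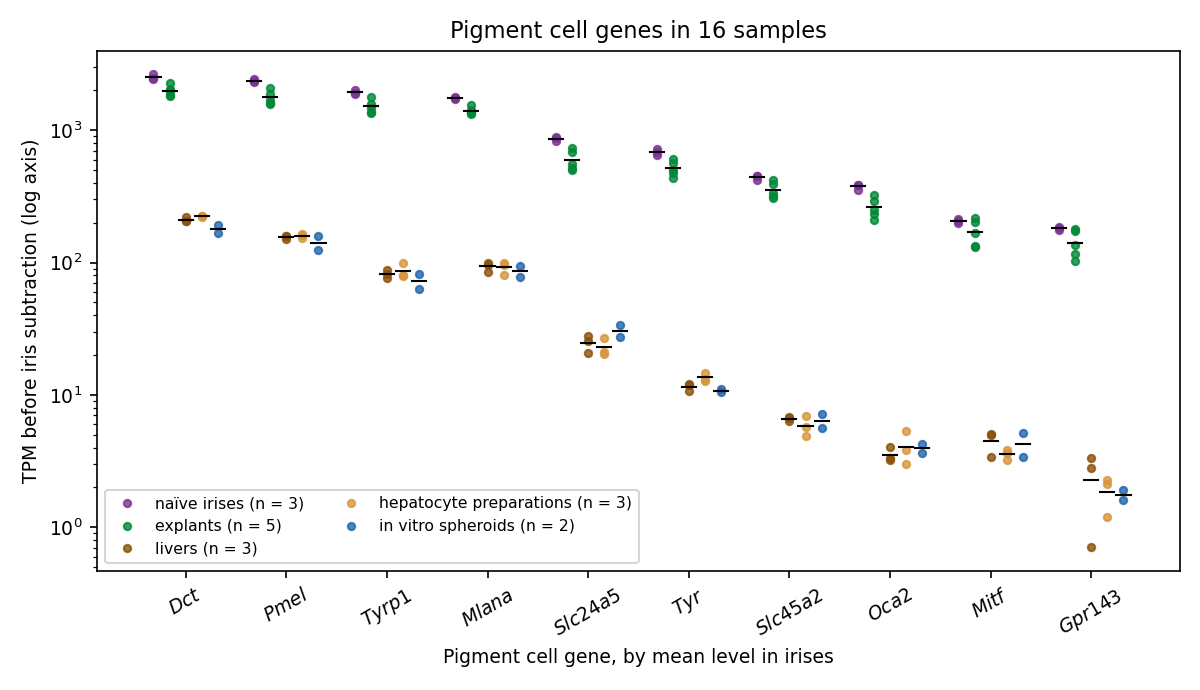
TPM of the 10 pigment cell genes on a log axis, ordered by their mean in irises, with 1 point per sample and a black line at the group mean. Irises and explants lie close together at 102 to 2644 TPM, and the 8 samples without eye tissue form a separate band at 0.706 to 226 TPM.

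Together the 10 genes made up 1.12% to 1.17% of all TPM in irises and 0.792% to 1.02% in explants, against 0.0486% to 0.0645% in the samples without eye tissue. The summed level in irises ran from 11172 to 11716 TPM, a spread of 1.05-fold. Per length, the order in irises was *Dct*, *Pmel*, *Tyrp1*, *Mlana*, *Slc24a5*, *Tyr*, *Slc45a2*, *Oca2*, *Mitf* and *Gpr143*, and no neighbours in this order overlapped between the 3 irises. Each explant kept the same order, except that in explant 6 *Mlana* (1382 TPM) stood just above *Tyrp1* (1373 TPM). Across explants the ranges of most neighbours overlapped. Only *Mlana* and *Slc24a5*, and *Tyr* and *Slc45a2*, stayed apart.

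The comparison of explants with naïve irises asks how the genes of an eye cell type stand in tissue that holds a liver graft. All 10 log2 fold changes were below 0, with a median of −0.27 beside a median of 0.01 over all 16764 genes tested. In edgeR's quasi-likelihood test, 0 of the 10 passed an adjusted p under 0.05 together with an absolute log2 fold change over 1, where 0.316% of all genes were called lower and 6.16% higher. DESeq2 and limma-voom also called 0. At an unadjusted p under 0.05, 8 of the 10 were lower in each of the 3 tools. The share of all genes at that threshold was not counted. Without the fold change limit, 7 were lower at an adjusted p under 0.05, where 2.74% of all genes were lower and 9.04% higher. *Oca2* had a log2 fold change of −0.44 (SE 0.10, adjusted p = 0.0235), *Slc24a5* −0.43 (SE 0.09, adjusted p = 0.0148) and *Pmel* −0.33 (SE 0.07, adjusted p = 0.0181). *Tyr*, *Tyrp1*, *Dct* and *Mlana* lay between −0.32 and −0.23, with adjusted p from 0.0272 to 0.0410. The other 3 did not pass: *Slc45a2* at −0.23 (adjusted p = 0.0942), *Gpr143* at −0.27 (adjusted p = 0.229) and *Mitf* at −0.19 (adjusted p = 0.363). In the 7 that passed, the TPM of explants and irises did not overlap, as was the case for 13.9% of all genes in this direction and 10.9% in the other. Without iris 1 or iris 2 the number at an adjusted p under 0.05 was 0, and without iris 3 it was 1. It was 3 without explant 2 and 4 without explant 4. Over all genes, the number lower at that threshold fell from 460 to 135, 84 and 116 without irises 1, 2 and 3. It was 279 without explant 2 and 443 without explant 4. Each of the 10 log2 fold changes remained below 0 in these fits. Bulk values cannot tell apart fewer pigment cells, less pigment gene RNA per cell, and unchanged iris RNA mixed with graft RNA.

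Explants differed from each other by more than irises did. As a percentage of the iris mean, explants 1, 2, 4, 5 and 6 had medians over the 10 genes of 89.6%, 72.1%, 81.6%, 70.3% and 66.2%. The iris share that the authors subtracted, solved from the deposited tables before and after subtraction, was 82%, 68%, 81%, 72% and 59% in the same order. In explants 1, 2, 4 and 6 the median of the pigment cell genes was above the share and in explant 5 below it. The side was not stable in explants 2 and 4. With an iris left out, the median of explant 4 ran from 80.7% to 83.4%, on both sides of its share. For explant 2 that range was 70.7% to 73.7%, above its share. Its median was at 67.9%, below the share, when an assumed upper limit of 2 counts per base was undone, as described further on. The authors estimated the share with CIBERSORT from iris and liver signatures, and whether these genes belong to the signatures was not tested. By gene, 10 were above the share in explant 1, 6 in explants 2 and 4, 4 in explant 5 and 8 in explant 6.

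**Figure D2:**
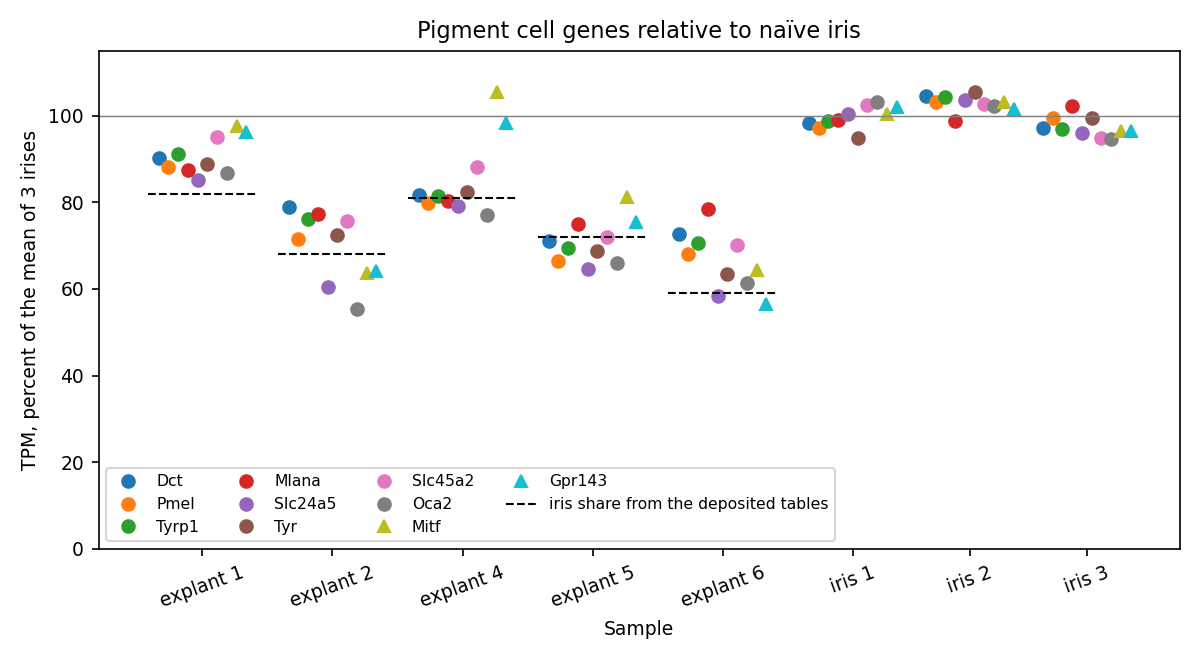
TPM of each pigment cell gene as a percentage of the mean of the 3 irises, with 1 point per gene for each explant and iris, triangles for *Mitf* and *Gpr143*, and a dashed line at the iris share of each explant. Explants spread from 55.3% to 105%, with *Mitf* and *Gpr143* at the top in explants 1 and 4 and below the dashed line in explant 2.

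*Mitf* and *Gpr143* did not keep step with the other genes. Relative to the median over the 10 genes in the same explant, *Mitf* was at 1.09, 0.882, 1.29, 1.15 and 0.973 in explants 1, 2, 4, 5 and 6, a spread of 1.47-fold. The corresponding values of *Gpr143* were 1.07, 0.891, 1.21, 1.07 and 0.852, a spread of 1.41-fold. *Tyr* and *Slc45a2* each spread by 1.05-fold on this scale. *Oca2* was lowest in explant 2 (0.767) and between 0.926 and 0.968 in the others, and *Mlana* was highest in explant 6 (1.19).

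Subtraction left very different amounts of these genes in the explants. In the authors' corrected table, explants 1, 2, 4, 5 and 6 had 0, 4, 9, 6 and 2 of the 10 genes at 0. The share of all genes at 0 was not counted. *Dct* was left at 1152, 857 and 841 in explants 1, 2 and 6 and at 0 in explants 4 and 5. The column of explant 4 was made differently: there the share was taken off the iris mean where the methods multiply both, and only 26.6% of its genes equal the formula in the methods. With that formula, 4 of the 10 genes would have been below 0 in explant 4, where 9 were deposited at 0. *Dct* would have been at 87.0 TPM and *Mitf* at 266 TPM there, against deposited values of 0 and 63.6. Uncorrected TPM are used everywhere else.

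Genes of melanosome assembly and transport, such as the subunits of the BLOC and AP-3 complexes that sort cargo to the melanosome and the Rab proteins that move it, serve many cell types besides pigment cells. Of 25 such genes, 0 passed an adjusted p under 0.05 between explants and irises in either direction, where 2.74% of all genes were lower and 9.04% higher, and 13 had a log2 fold change below 0 (median −0.07). Against livers, 9 of the 25 were called higher in irises and 1 lower, where 29.8% of all genes were called higher and 22.1% lower. *Rab38*, a small GTPase of melanosome biogenesis, stood at 651 to 683 TPM in irises, 493 to 608 TPM in explants and 7.66 to 12.9 TPM in the other samples. *Gpnmb*, a close relative of *Pmel*, stood at 750 to 801 TPM in irises, 553 to 728 TPM in explants and 30.4 to 76.7 TPM in the others. The log2 fold changes of explants over irises were −0.21 (adjusted p = 0.0555) for *Rab38* and −0.23 (adjusted p = 0.0714) for *Gpnmb*.

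Signals and regulators of pigment cells were followed in a list of 19 genes. In explants against irises, 12 had a log2 fold change below 0 (median −0.09, beside 0.01 over all genes). At an adjusted p under 0.05, 1 was lower and 1 higher, where 2.74% of all genes were lower and 9.04% higher. With the fold change limit 0 passed, where 0.316% of all genes were called lower and 6.16% higher. *Edn3*, the endothelin that promotes melanocyte growth through the receptor EDNRB, was lower. It stood at 547, 475 and 456 TPM in irises. In explants it was at 312, 261, 318, 275 and 297 TPM, lower without overlap, as were 13.9% of all genes. That gave a log2 fold change of −0.65 (SE 0.08, adjusted p = 0.00120), with an adjusted p of 0.0120 at most when any single sample was left out. *Ednrb* had a log2 fold change of −0.06 (adjusted p = 0.824). *Tfe3*, a relative of *Mitf*, was higher at 16.99 to 20.2 TPM in explants and 14.5 to 17.8 TPM in irises, which overlap (log2 fold change 0.31, adjusted p = 0.0402), and failed an adjusted p under 0.05 without any one of the 8 samples and when scaled by library size alone (adjusted p = 0.117). The ligand and receptor pair *Kitl* and *Kit* had log2 fold changes of 0.46 (adjusted p = 0.0863) and 0.42 (adjusted p = 0.0817), and *Mc1r*, the melanocortin receptor, −0.67 (adjusted p = 0.0622).

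**Figure D3:**
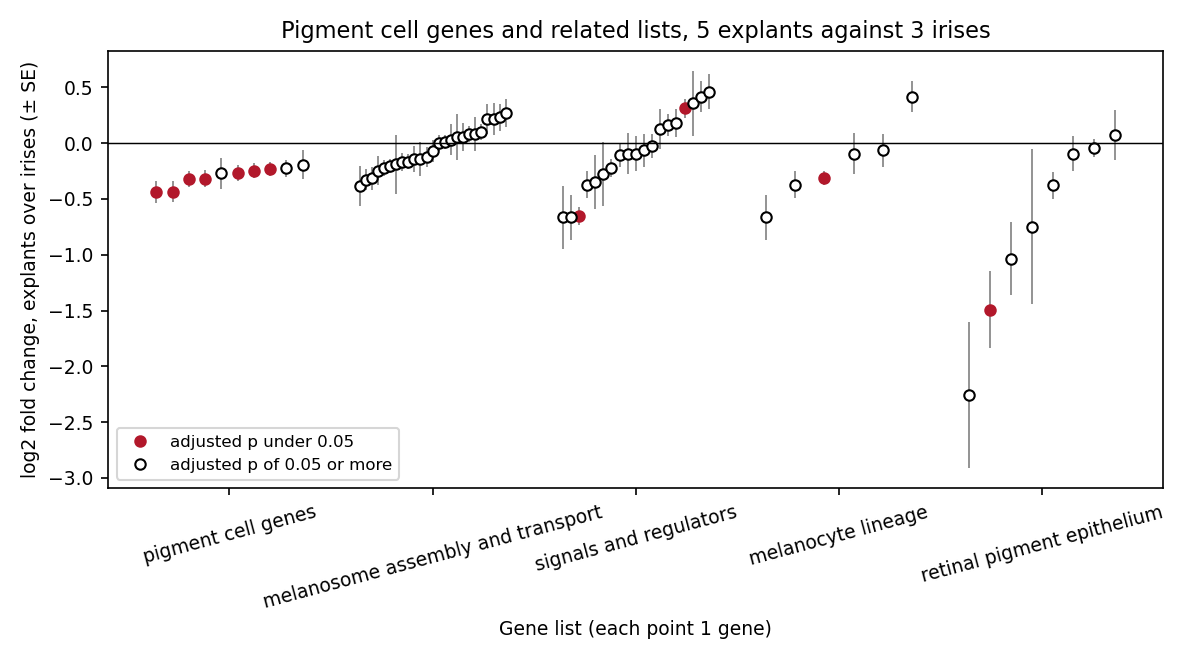
Log2 fold change of explants over irises with its standard error, 1 point per gene, for the pigment cell genes and 4 related lists, with filled points at an adjusted p under 0.05 in edgeR. All 10 pigment cell genes lie between −0.44 and −0.19, and the 25 genes of melanosome assembly and transport scatter around 0. Of the melanocyte lineage genes 5 of 6 lie below 0, and of the retinal pigment epithelium genes 7 of 8.

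Markers of the cells that can hold these transcripts were set beside them. Of 6 melanocyte lineage genes, 5 had a log2 fold change below 0 (median −0.20, beside 0.01 over all genes). At an adjusted p under 0.05, 1 was lower and 0 higher, where 2.74% of all genes were lower and 9.04% higher. *Trpm1*, a cation channel whose gene is under MITF, stood at 685 to 711 TPM in irises and 459 to 618 TPM in explants. Its log2 fold change was −0.31 (adjusted p = 0.0146), and without iris 1, 2 or 3 its adjusted p was 0.0572, 0.0950 and 0.0579. *Sox10*, the neural crest factor, stood at 34.7 to 38.5 TPM in irises and 22.6 to 31.1 TPM in explants (log2 fold change −0.37, adjusted p = 0.0826). Of 8 genes of the retinal pigment epithelium, 7 were below 0 (median −0.56), and 1 was called lower, where 0.316% of all genes were. *Rgr*, an opsin of that layer, was called lower (log2 fold change −1.49, adjusted p = 0.0232), but not without iris 2 (adjusted p = 0.118), iris 3 (adjusted p = 0.0534) or explant 2 (adjusted p = 0.0555). Its highest iris, iris 2, had 258 TPM, against 103 and 127 TPM in the others and 26.2 to 85.2 TPM in explants.

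The neural retina genes varied far more between samples than the pigment cell genes did. Their summed level over 8 genes was 918, 363 and 2645 TPM in the 3 irises, a spread of 7.28-fold, and 65.8 to 1432 TPM in explants. *Rpe65*, the isomerase of the retinal pigment epithelium, was at 15.2, 58.1 and 19.4 TPM in irises and at 1.24 to 15.9 TPM in explants. All 7 lens genes tested were lower in explants at an adjusted p under 0.05, and 5 of them were called, where 2.74% of all genes were lower and 0.316% called lower. The summed level of 7 iris muscle genes was 3867 to 4077 TPM in irises and 2761 to 3400 TPM in explants, and that of 6 iris transcription factors 326 to 350 TPM and 210 to 320 TPM. In the opposite direction, the 8 macrophage markers summed to 529 to 549 TPM in irises and 677 to 2186 TPM in explants, and the 8 hepatocyte markers to 1657 to 2009 TPM and 5517 to 7393 TPM. Of 6 lipid-laden macrophage genes 4 were called higher, beside 6.16% of all genes. Of 6 Schwann cell genes edgeR called 0 with the fold change limit. Without it 1 was higher and 1 lower, where 9.04% of all genes were higher and 2.74% lower. The part of these differences in the level of the pigment cell genes was not tested.

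**Figure D4:**
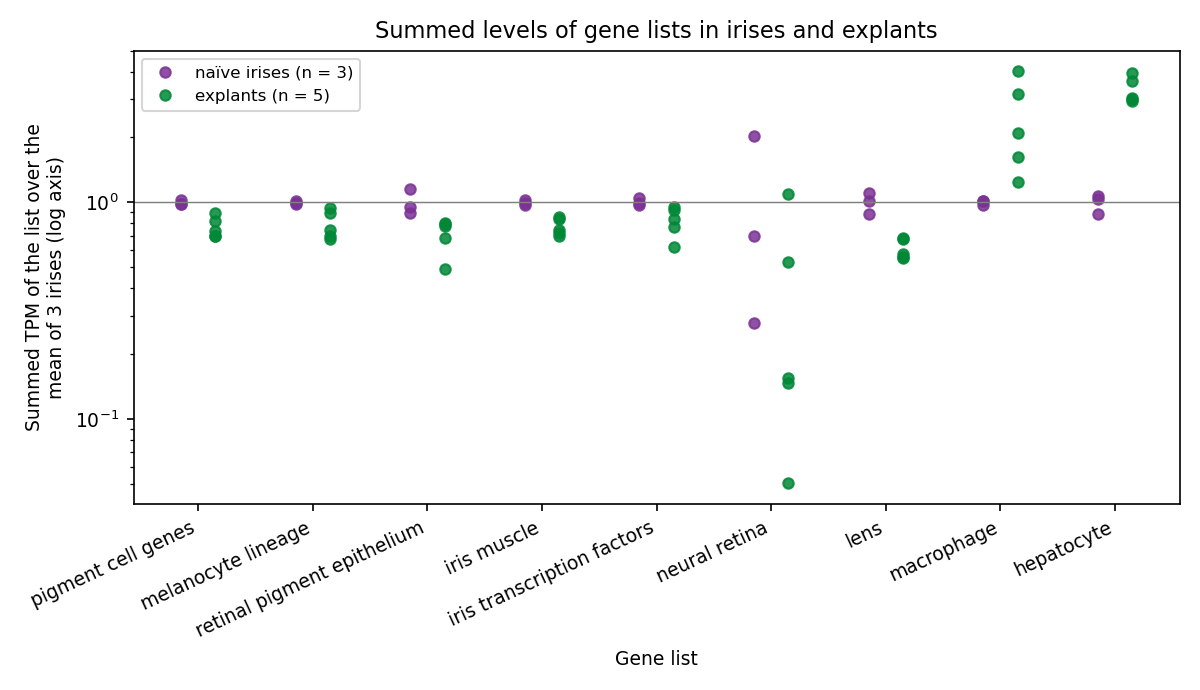
Summed TPM of each gene list in each iris and explant, divided by the mean of the 3 irises, on a log axis. The pigment cell genes sit within 1.05-fold among irises, the neural retina genes spread over 7.28-fold, and the macrophage and hepatocyte lists are higher in each explant than in any iris.

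All 10 genes were also counted in every liver, hepatocyte preparation and in vitro spheroid sample. Their summed level ran from 486 to 645 TPM over these 8 samples, and single genes spread more, *Gpr143* from 0.706 to 3.31 TPM and *Oca2* from 3.01 to 5.30 TPM. No value was 0, and 2 of the 80 counts were at or under 3, both of *Gpr143*. *Dct* stood at 208, 220.4 and 205 TPM in livers, at 220.5, 226 and 226 TPM in hepatocyte preparations and at 191 and 168 TPM in in vitro spheroids. That is 8.22% of its iris mean. *Tyr* was at 12.01, 10.6 and 11.96 TPM in livers, at 14.6, 13.2 and 12.8 TPM in hepatocyte preparations and at 11.03 and 10.5 TPM in in vitro spheroids, or 1.76% of its iris mean. *Mitf* had 22 to 45 counts per sample (3.19 to 5.15 TPM, 1.98%). *Gpr143* had 2 to 10 counts (1.09%) and *Oca2* 15 to 30 (1.02%). Of the 6 melanocyte lineage genes, *Mc1r*, *Sox10* and *Pax3* had at most 0.247, 0.514 and 0.436 TPM in these samples, *Kit* 0.512 to 2.67 TPM, *Ednrb* 3.94 to 20.5 TPM and *Trpm1* 13.5 to 19.6 TPM. Their summed level was 2.98% of that in irises, against 5.17% for the pigment cell genes. Where these reads came from was not tested, nor whether other libraries sequenced in the same pool contributed them. The percentages outside the eye are therefore not a measure of expression in liver cells.

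The percentage differed between the genes, and the 4 with the most counts per base in irises had the highest. *Dct* and *Pmel*, with 1.37 and 1.29 counts per base per technical library in irises, stood at 8.22% and 6.47%. *Mlana* and *Tyrp1*, with 0.953 and 1.05, stood at 5.17% and 4.17%. *Slc24a5*, with 0.467, was at 2.96%, and reads in its overlap with *Myef2* were counted for both genes. How the overlap bears on this percentage was not tested. *Tyr*, *Slc45a2*, *Oca2*, *Mitf* and *Gpr143*, all at 0.371 or less, were at 1.02% to 1.98%. Among genes of 500 bases or longer, the highest density in any library was 1.70 counts per base. An upper limit of 2 counts per base and library, picked once the results were known, was assumed and undone by recalculation. *Dct* was then at 4.83%, *Pmel* at 3.98% and *Oca2* at 0.933% of the iris mean. The recalculation raises the densest genes of the irises most, so their percentages fall most by construction. These values therefore cannot show whether a limit acted on the counts, which was not tested. The summed level of the 6 iris transcription factors in the same 8 samples was 1.28% of that in irises, and that of the 7 iris muscle genes 3.63%.

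**Figure D5:**
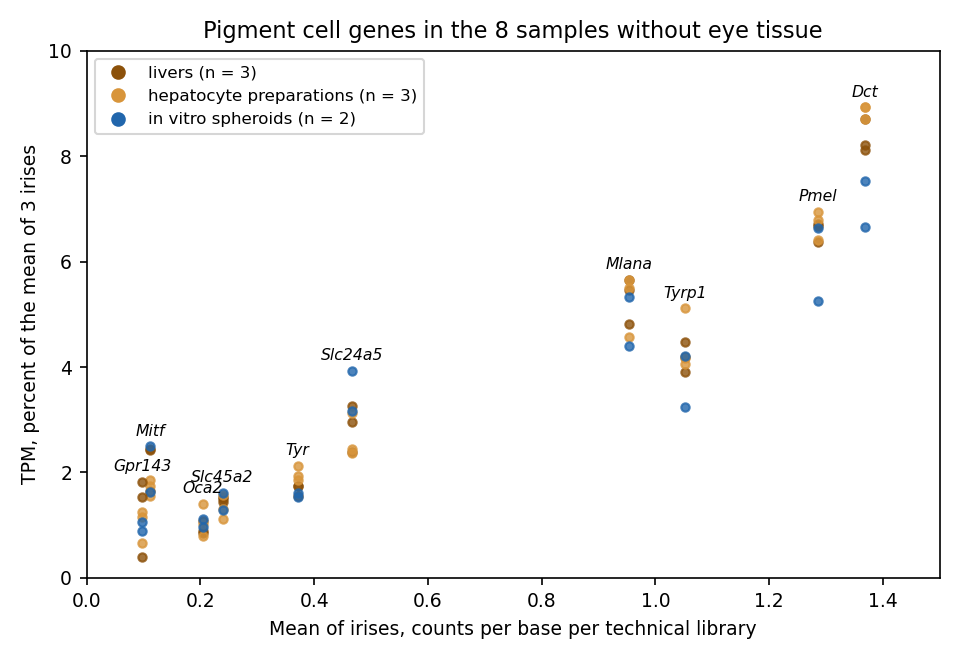
TPM of each pigment cell gene in the 8 samples without eye tissue, as a percentage of the mean of the 3 irises, against the mean counts per base per technical library in irises. Percentages run from 1.02% for *Oca2* to 8.22% for *Dct* on average, and the ranges of livers, hepatocyte preparations and in vitro spheroids overlap for most genes.

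Irises exceeded livers in all 10 genes. The ratio of mean TPM ran from 11.98-fold for *Dct*, 15.2-fold for *Pmel* and 18.8-fold for *Mlana* to 79.9-fold for *Gpr143* and 107-fold for *Oca2*. In edgeR all 10 were called higher in irises, where 29.8% of all genes were called in that direction and 22.1% in the other (39.1% and 34.5% without the fold change limit), and their log2 fold changes ran from 2.69 (*Dct*, adjusted p = 3.61e-08) to 5.85 (*Oca2*, adjusted p = 4.58e-09). The TPM of irises and livers did not overlap in any of the 10, as in 66.5% of all genes in this direction and 18% in the other. The median of all genes was 0.11 in this fit and 0.80 when scaled by library size alone, and the median of the 10 genes 4.43 and 5.12.

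Hepatocyte preparations did not differ measurably from livers in these genes when those groups were fitted alone. Of the 9 with enough counts to be tested, all but *Gpr143*, edgeR called 0 and 0 passed an unadjusted p under 0.05, as in DESeq2 and limma-voom, where 0.409% of all genes were called higher and 2.31% lower. Without the fold change limit 0 passed as well, where 0.785% of all genes were higher and 2.84% lower. Fitted together with the other groups in edgeR, 1 was higher at an adjusted p under 0.05, where 942 of 17064 genes were higher and 1309 lower. At an unadjusted p under 0.05, 3 were higher, and the share of all genes was not counted. Log2 fold changes ran from −0.20 (*Mitf*, SE 0.27) to 0.37 (*Tyr*, SE 0.19, adjusted p = 0.266). *Tyr* and *Dct* were higher in each hepatocyte preparation than in any liver, which was so for 7.35% of all genes, and 0 were lower without overlap, where 23.8% of all genes were.

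In vitro spheroids had lower levels than hepatocyte preparations in some of these genes, depending on the scaling. Of 9 tested, 0 were called with the fold change limit by edgeR, DESeq2 or limma-voom, where 9.11% of all genes were called lower and 8.13% higher. At an unadjusted p under 0.05 in edgeR 4 were lower, and the share of all genes was not counted. Without the limit, *Dct* (log2 fold change −0.65, adjusted p = 0.0214), *Tyrp1* (−0.60, adjusted p = 0.0465) and *Pmel* (−0.51, adjusted p = 0.0461) were lower, beside 13.4% of all genes lower and 12.5% higher. The TPM of *Tyr* and *Dct* were lower without overlap, as in 15.8% of all genes, and those of *Slc24a5* higher, as in 44.2%. Scaled by library size alone, which moved the median of all genes from 0.01 to 0.27, 0 were lower at an adjusted p under 0.05. Of all 12247 genes, 1104 were. With any of the 5 samples left out the number was 0 or 1. Over all genes it was then 938 to 1353, against 1637 in the main fit.

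By Pearson correlation of log2(TPM + 1) with the mean of the 10 genes over the 5 explants and 3 irises, the closest of 11756 other genes were *Atrnl1* (0.996), *Tspan10* (0.992), *Sdcbp* (0.991), *H3f3b* (0.991) and *Smap1* (0.990). These 8 samples share the difference between the groups, so that any gene lower in explants by a like amount scores high. *Tspan10*, a tetraspanin, was the most abundant of the 5, with a mean of 893 TPM in irises, 684 TPM in explants and 14.1 TPM in the samples without eye tissue. *Atrnl1*, a relative of the attractin gene of the agouti pathway, had means of 68.1, 46.3 and 8.48 TPM.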

How the data were processed

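Smart-seq3 libraries were made in 3 technical copies from each of 16 samples (48 in all). Reads were aligned to mm10 with TopHat2, duplicates were removed with SAMtools and UMI-tools, and featureCounts assigned the rest to exons, counting a read for each gene it overlaps, without strand. The authors deposited raw counts per library and summed per sample, TPM, and, as a separate table in TPM units, explant values after subtraction of an iris share, whose column for explant 4 is not TPM and was used only to describe the subtraction. Symbols came from the authors' table or, where it held none, from the reference table. One count table without gene identifiers was not used.

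Counts summed over technical libraries, which equal the deposited values in 100% of cells, were tested with edgeR 4.0.16 in R 4.3.3 (filterByExpr, TMM, quasi-likelihood), with Benjamini-Hochberg adjustment over all genes tested. ERCC controls (418 counts in all) were left out. A call needed both an adjusted p under 0.05 and a log2 fold change beyond 1 in either direction. Each comparison used its own groups alone. Alternatives were DESeq2 1.42.0, limma-voom 3.58.1, RLE size factors, library size alone, no filter, at least 10 counts in every sample, a replicate block, no limit on the fold change, the 5 groups fitted together, only the technical libraries lettered a, and each sample left out in turn. The fits were also run on simulated counts with known changes, and the outcome is not given here. Counts without the fold change limit, and the limit of 2 counts per base undone, were added after seeing the data, as were the 4 list genes followed through all settings. Genes named are the 10 members, genes of the lists set beside them, and the 5 genes most like them among those at 10 TPM or more in irises. The members and lists were chosen with earlier results of these data known. Counts per base limit precision for the lowest genes, such as *Gpr143* outside the eye.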

Additional observations from a re-analysis of the deposited data

How the results depend on the processing

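Between irises and livers the number of pigment cell genes called was 10 under every alternative, apart from 9 where *Gpr143* was not tested under the filter of at least 10 counts in every sample. The numbers called with the fold change limit were 0 in the other 3 comparisons under every other alternative, and without the limit 7 for explants against irises and 3 for in vitro spheroids against hepatocyte preparations. The 7 became 4 without a filter, 4 in the single fit of all 5 groups and 0 with a replicate block. The range was 0 to 8 when a sample was left out. Over all genes, the 460 lower became 325, 158 and 55 in those settings, and 84 to 596 with a sample left out. The 3 became 0 with library size alone, 1 with DESeq2 and 1 with technical libraries a alone. They became 5 in the single fit and 0 with a replicate block. The range was 0 to 1 when a sample was left out. Over all genes, the 1637 lower became 1104, 1536, 1130, 2419 and 1290 in those settings, in the same order. With a sample left out they were 938 to 1353. For hepatocyte preparations against livers, 0 passed without the limit in the main fit. In the single fit 1 was higher, where 942 of 17064 genes were. The replicate numbers were not shown to pair samples, since the deviations of same-numbered samples correlated at −0.11 to 0.05 for explants and irises, and at 0.10 and 0.14 for the only 2 pairs of in vitro spheroids and hepatocyte preparations. The ratio of explant 6 to irises moved from 66.2% to 77.6% when CPM after TMM replaced TPM; the cause was not tested.

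Directions that turned were those of genes not called. In hepatocyte preparations against livers, *Slc24a5* was at −0.093 with library size alone and −0.016 with at least 10 counts, and ran from −0.13 to 0.15 when a sample was left out. In the same comparison *Pmel* was at −0.044 with technical libraries a alone, and *Slc45a2* was at 0.023 in the single fit and ran from −0.15 to 0.093 when a sample was left out. In in vitro spheroids against hepatocyte preparations, *Mitf* was at 0.19 with library size alone and ran from −0.28 to 0.084 when a sample was left out, and *Slc45a2* was at 0.058 with library size alone.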
